A study of Mus musculus with 16 samples.

Results

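Hematopoietic stem cells (HSCs) lacking Selp, the gene of P-selectin, were compared with HSCs carrying an intact Selp gene after both had been kept in culture with vehicle. The study holds 16 bulk RNA-seq libraries of mouse bone marrow HSCs from animals aged 4 to 6 months, and it asks how P-selectin and its ligand PSGL-1 act on these cells. The comparison uses the 6 libraries whose labels name vehicle treatment, 3 Selp wild type (WT) and 3 Selp knockout (KO). Of 25239 genes in the count file, 11783 had enough counts in these 6 libraries and were tested. The medium held 10% fetal calf serum, 300 ng/mL stem cell factor, 20 ng/mL interleukin-11, 1 ng/mL Flt-3 ligand, penicillin and streptomycin, for both genotypes alike. The other 10 libraries were 3 WT and 2 KO of freshly sorted cells and 2 WT and 3 KO of cells given 125 ng/mL PSGL-1 for 24 h. The time in vehicle culture, the sort gate, the mouse strain, the structure of the knockout allele and the number of mice per library are not given here. Without the strain and the breeding, an effect of the Selp deletion and of any other genetic difference between the WT and KO mice cannot be told apart. The labels do not tie each library to its own mouse. The p-values therefore reflect library-to-library spread, part of which may be technical.

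P-selectin is an adhesion receptor of platelets, megakaryocytes and endothelial cells. It is stored in granules, reaches the cell surface on activation and binds PSGL-1, a mucin-like glycoprotein on leukocytes and blood progenitors that is encoded by Selplg. Binding needs fucosylated and sialylated O-glycans and sulphated tyrosines on the ligand. Selp is also one of the genes reported as raised in HSCs of old mice, together with Vwf and Clu.

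The 6 libraries held 13481058 to 24690824 counts, and 11101 to 13127 genes had a count. Levels are given in counts per 1000000 counts of the library (CPM), and 3 counts, taken as the detection floor, equal 0.122 to 0.223 CPM. WT replicate 2 was least like the others, with Spearman correlations across genes of 0.840 to 0.869. The biological coefficient of variation, the spread between libraries of a group, was 0.737. Each library had counts of an HSC identity list, though not of every member. Its 44 genes summed to 6102 ± 688 CPM in WT and 6683 ± 419 CPM in KO (mean ± SD, n = 3). The largest member was Cd34, at 732 CPM in WT and 866 CPM in KO. Mycl had no count in any of the 6 libraries, and Slamf1 had none in WT replicates 1 and 2. Genes of other blood cells were present in part. Csf3r, the receptor gene of granulocyte colony-stimulating factor, averaged 209 CPM in WT and 187 CPM in KO, and Spp1, the gene of osteopontin, 370 and 479 CPM. In all 6 libraries 6 of 27 granulocyte and monocyte genes, 6 of 23 erythroid genes, 10 of 20 macrophage and dendritic cell genes, 11 of 16 B and plasma cell genes and 14 of 18 T and NK cell genes were at 0. Among these, no library had a count of the T cell genes Cd3d, Cd3e or Cd3g, the B cell genes Cd79a and Pax5, the macrophage genes Adgre1 and C1qa, the neutrophil genes S100a8 and S100a9 or the haemoglobin genes Hba-a1 and Hbb-bs.

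A single gene passed the test across all genes. Eno1b, an intronless copy of the glycolytic enolase gene Eno1, rose 83.1-fold in KO vehicle cells, and no gene fell (edgeR quasi-likelihood test, adjusted p under 0.05, 0.00849% of the genes tested). Every other gene had an edgeR adjusted p of 1.00, and 449 genes had an unadjusted p under 0.05, 3.81% of the genes tested. Of these, 201 were higher in KO (1.71%) and 248 lower (2.1%). The count depended on the tool: DESeq2 called 66 of the 12610 genes to which it gave an adjusted p (0.523%), 42 higher (0.333%) and 24 lower (0.19%), and limma with voom weights called 0, with 453 at an unadjusted p under 0.05 (3.84%). Of the 66 genes DESeq2 called, 24 had no count in any library of one genotype. Without KO replicate 2 edgeR called 2 genes, Eno1b and the ribosomal protein gene Rpl29. Apart from Eno1b, the differences below are therefore values, not changes that passed the test, and folds and log2 differences are the coefficients fitted by edgeR. The libraries of both genotypes did not overlap for 1289 genes (10.9%), 780 with each KO library higher (6.62%) and 509 with each lower (4.32%).

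The targeted gene was low but not silent in the libraries labelled KO. Selp, on mm10 chr1:164115264-164150026, stood at 59.6, 26.5 and 139 CPM in the WT libraries and at 5.48, 12.4 and 4.66 CPM in the KO libraries. The genotypes did not overlap, and each KO library still lay well above the floor. The fitted level was 10.2-fold lower in KO, a log2 difference of -3.35 (SE 0.71, edgeR adjusted p = 1.00, DESeq2 adjusted p = 0.000831). An exact two-sided permutation test gave p = 0.1, the smallest that 3 against 3 libraries allow. Which exons the allele lacks is not given, so reads from remaining exons and full transcripts cannot be told apart in these gene counts. In the fresh and PSGL-1 libraries Selp was at 16.8 to 183 CPM in WT and at 0 to 10.3 CPM in KO.

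Selplg, the gene of the ligand, stood at a similar level in both genotypes. It was at 394, 369 and 293 CPM in WT and 327, 435 and 245 CPM in KO, with overlapping groups and a log2 difference of -0.08 (SE 0.22, exact two-sided permutation p = 0.7). The sign turned when WT replicate 1 (0.00197) or KO replicate 3 (0.0966) was left out. Sele, the gene of the endothelial E-selectin, had no count in any library.

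Of the 19 tested genes for selectins, PSGL-1 and the glycosyltransferases and sulphotransferases that build its selectin-binding sugars, 8 were above 0 and 11 below, with a median log2 difference of -0.08. Podxl, a sialomucin of blood progenitors and endothelium, was at 24.0 ± 6.45 CPM in WT and 53.4 ± 22.7 CPM in KO (log2 1.14, SE 0.44). Slc35c1, the Golgi transporter of GDP-fucose, was at 116, 165 and 148 CPM in WT and 86.1, 109 and 104 CPM in KO (log2 -0.54, SE 0.22). Neither pair of groups overlapped. The fucosyltransferase Fut7, the sulphotransferases Tpst1 and Tpst2 and the core 2 enzyme Gcnt1 had overlapping groups.

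Eno1b separated the genotypes more sharply than Selp did. The gene lies on mm10 chr18:48045335-48048379 and is annotated as protein-coding. It stood at 1.20, 1.77 and 1.24 CPM in WT and at 121, 121 and 113 CPM in KO. WT libraries held only a trace, and the KO libraries lay close to one another far above them. The log2 difference was 6.38 (SE 0.37, edgeR adjusted p = 0.000622, DESeq2 adjusted p = 2.94e-66), while limma gave 6.44 with an adjusted p of 0.968. Fresh cells had 1.46, 1.43 and 1.36 CPM in WT and 80.7 and 69.8 CPM in KO, and PSGL-1 cultures 1.52 and 1.41 against 118, 125 and 118 CPM. In those 10 libraries, fitted with condition as a term, the log2 difference was 6.06 (edgeR adjusted p = 2.57e-05). Of the 50-base stretches of the Eno1b transcript, 75.26% also occur in Eno1, and the coding parts are 99.39% identical over 1302 bases, so reads of the copies could be exchanged by the counting. Eno1 itself had a log2 difference of -0.36 (SE 0.15) with overlapping groups.

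Wdfy1 and Nnt were low in KO cells of each condition. Wdfy1, an endosomal protein with a FYVE domain, lies on the same chromosome as Selp but far from it, on mm10 chr1:79702262-79776143. It was at 86.6, 218 and 151 CPM in WT and 30.6, 21.4 and 49.3 CPM in KO, a log2 difference of -2.18 (SE 0.43, DESeq2 adjusted p = 0.000831). The groups did not overlap here or in the other 10 libraries, where the difference was -1.69 (SE 0.35, edgeR adjusted p = 0.72). Nnt, the mitochondrial transhydrogenase that supplies NADPH and that carries a deletion in the C57BL/6J substrain, was at 112, 167 and 110 CPM in WT and 66.5, 54.1 and 90.7 CPM in KO. Its difference was -0.89 (SE 0.29, DESeq2 adjusted p = 0.356) in vehicle and -1.89 (SE 0.37, edgeR adjusted p = 0.612) in the other 10 libraries, again without overlap. Eno1b, Trim12a, Wdfy1 and Nnt come from a list of 30 genes reported to differ between C57BL/6 substrains or other mouse strains. Of its 18 tested members 1, Eno1b, passed the test (all genes, 0.00849%), 7 were above 0 and 11 below, and the median was -0.03. The members were chosen with earlier results of these data known, so this count is no test of the list.

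Trim12a, like Eno1b, was nearly absent from WT cells. It belongs to the Trim5 cluster of antiviral restriction factors and lies on mm10 chr7:104299893-104315558. No WT vehicle library had a count, and the KO libraries had 19.9, 32.3 and 14.2 CPM, at least 113-fold higher against 3 counts per WT library (edgeR adjusted p = 1.00, DESeq2 adjusted p = 1.48e-09). In the other conditions WT libraries reached at most 0.281 CPM, and KO libraries lay between 23.9 and 74.1 CPM. Its nearest relative in the cluster, Trim12c, did not follow: it had 44.5, 27.7 and 17.6 CPM in WT and 14.6, 8.83 and 30.7 CPM in KO, with overlapping groups. The first 60 coding bases of both genes, read from the GENCODE transcripts for mm10 (minus strand, chr7:104307272-104307331 and chr7:104348288-104348347), show how alike these copies are. Capitals mark the 2 positions that differ.
Trim12a: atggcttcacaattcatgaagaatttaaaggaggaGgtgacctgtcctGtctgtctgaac
Trim12c: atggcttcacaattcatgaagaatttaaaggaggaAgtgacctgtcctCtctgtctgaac
Over the 891 coding bases of Trim12a the identity was 96.41%, and 16.08% of its 50-base stretches also occur in Trim12c. Most stretches of Trim12a therefore occur in it and not in Trim12c, although the counting of reads with several matches is not given.

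**Figure D1:**
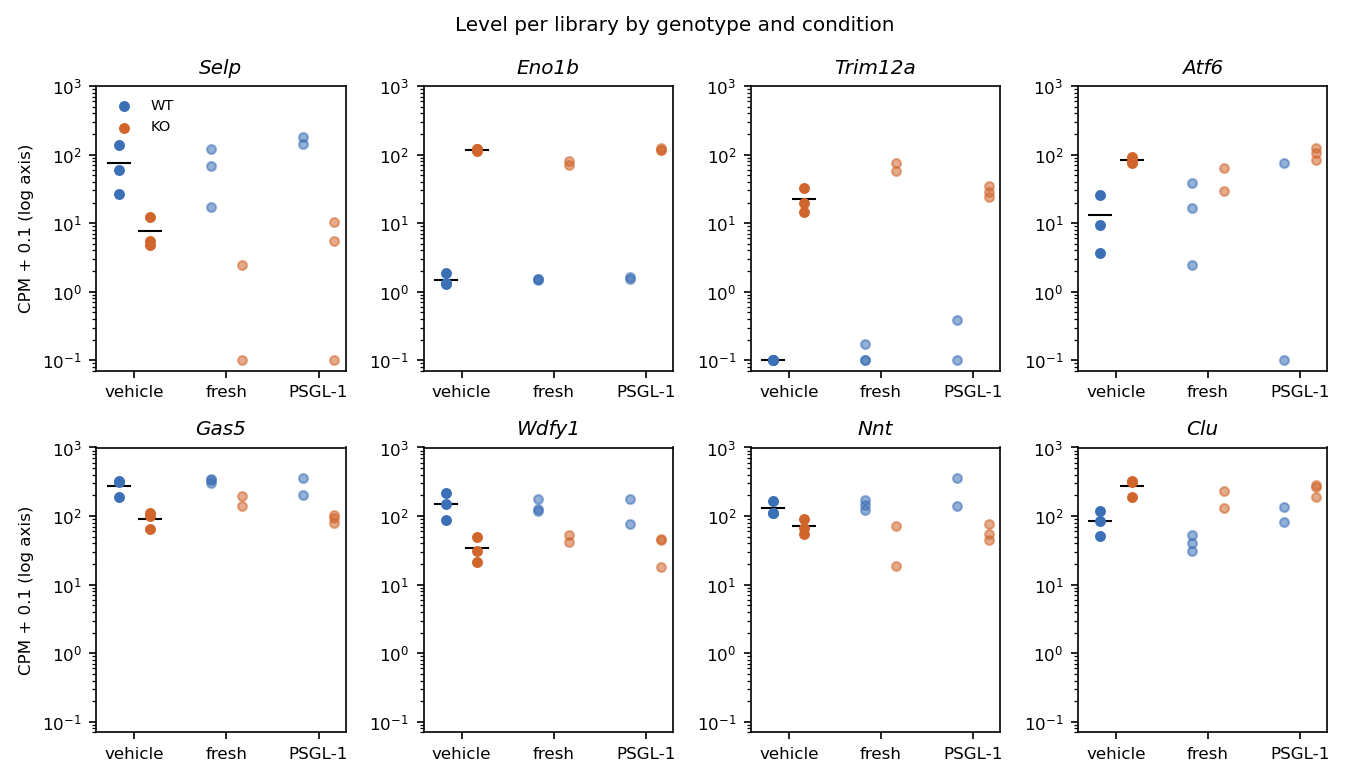
Level in CPM plus 0.1 on a log axis for 8 genes in each library, WT in blue and KO in orange, for vehicle, fresh and PSGL-1 libraries; black bars are vehicle means. Eno1b lies at 1.20 to 1.77 CPM in WT and 113 to 121 CPM in KO vehicle libraries, and Selp, Gas5, Wdfy1 and Nnt are lower and Trim12a, Atf6 and Clu higher in each KO vehicle library.

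The surroundings of Selp on chromosome 1 held further genes that separated the genotypes, in both directions. Within 10 Mb of Selp 116 genes were tested, 47 above 0 and 69 below, with a median log2 difference of -0.11 against 0.00 over all genes. Each KO library was higher than each WT library for 11 of them and lower for 15 (all genes, 6.62% and 4.32%). An unadjusted edgeR p under 0.05 was found for 4 higher and 8 lower (all genes, 1.71% and 2.1%). DESeq2, which called 0.523% of all genes, called 5 of the window, among them Selp, Gas5, Atf6 and Ifi204. No gene of the window passed the edgeR test.

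Gas5, a long non-coding RNA whose introns host small nucleolar RNAs, lies at -3.08 Mb from Selp (mm10 chr1:161034601-161038539). It was at 327, 314 and 189 CPM in WT and 98.9, 65.6 and 109 CPM in KO, 3.06-fold lower (log2 -1.61, SE 0.27, DESeq2 adjusted p = 0.000104). The lowest WT library lay above the highest KO library, as it did in the other 10 libraries, where the difference was -1.27 (SE 0.23, edgeR adjusted p = 0.434). Atf6, a sensor of endoplasmic reticulum stress at 6.55 Mb, went the other way, with 3.60, 9.14 and 26.0 CPM in WT and 93.4, 80.1 and 76.4 CPM in KO (log2 2.66, SE 0.67, DESeq2 adjusted p = 0.0154). In the other 10 libraries its groups overlapped, since WT PSGL-1 replicate 2 reached 74.7 CPM. Ifi204, an interferon-inducible gene of the p200 family, had no count in any WT vehicle library and 2.45, 8.46 and 2.27 CPM in KO, at least 22.4-fold higher (DESeq2 adjusted p = 0.0383). It was also without a count in each fresh and PSGL-1 WT library and at 1.82 to 11.2 CPM in each such KO library. Its family has many similar copies, so single members are uncertain.

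A pair of signalling lymphocyte activation (SLAM) receptor genes in the window, picked after their values were seen, did not move together. Slamf1, the gene of CD150 used to sort HSCs, was at 0, 0 and 5.33 CPM in WT and 24.6, 9.05 and 24.6 CPM in KO (log2 3.41, SE 2.01). Cd244a, another receptor of the family, was at 52.9, 38.6 and 15.9 CPM in WT and 10.2, 8.83 and 5.43 CPM in KO (log2 -2.14, SE 0.63). Neither pair of groups overlapped in vehicle, and the directions were opposite. In the other 10 libraries the groups of both genes overlapped, with differences of 1.22 for Slamf1 and -1.18 for Cd244a. The other tested genes of the family in the window, Ly9 (log2 -0.79, SE 0.75) and Cd84 (log2 0.55, SE 0.77), had overlapping groups.

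**Figure D2:**
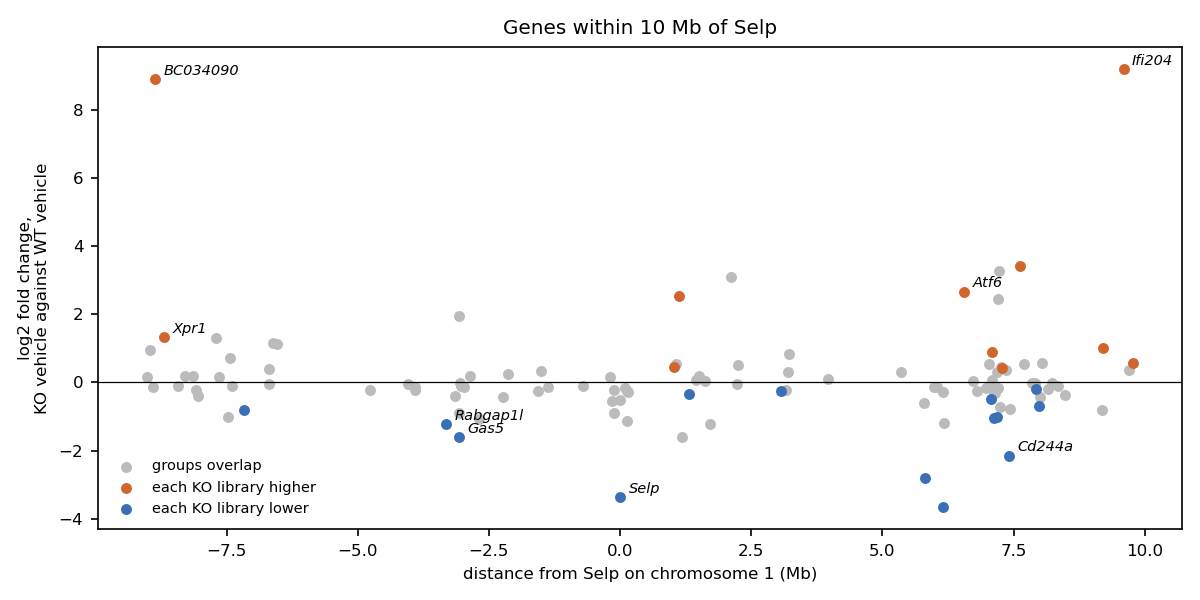
Log2 fold change, KO vehicle against WT vehicle, for the genes tested within 10 Mb of Selp (1 of the 116 is not drawn), by distance in Mb; orange genes are higher and blue genes lower in each KO library, and grey genes overlap. Ifi204 at the right edge and BC034090 at the left have no count in WT, so their height depends on the prior count; Gas5 lies at -1.61 and Atf6 at 2.66.

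Beyond these, the genes with the smallest p values came from many processes. Of 20 genes named by rank, 10 higher and 10 lower in KO, each had groups without overlap, which the naming rule required. Each also had an adjusted p under 0.05 in DESeq2, which called 0.523% of all genes, but only Eno1b passed in edgeR. DESeq2 used the same 6 libraries from which the genes were picked by small p, so its calls are no separate support. On the higher side Clu, the secreted chaperone clusterin, was at 51.7, 84.9 and 117 CPM in WT and 326, 190 and 317 CPM in KO (3.24-fold, log2 1.70, SE 0.34, DESeq2 adjusted p = 0.000831). The AP-1 subunit gene Jund was at 149 ± 13.8 and 323 ± 113 CPM, the selenoprotein gene Selenom at 19.2, 26.9 and 32.8 CPM against 80.2, 81.4 and 60.1 CPM, and the actin-binding calponin gene Cnn2 at 118 ± 30.9 and 240 ± 33.1 CPM. Tns2, a focal adhesion tensin, was at 7.72 ± 3.57 CPM in WT and 45.6 ± 7.93 CPM in KO (log2 2.54, SE 0.56). Some of the higher genes were at or near 0 in WT. The ciliary kinase gene Nek8 had 0.678 ± 0.494 CPM in WT and 24.8 ± 18.6 CPM in KO. Clec14a, an endothelial C-type lectin, and Themis2, a signalling adaptor of B cells and macrophages, had no count in WT and were at least 68.6-fold and at least 51.6-fold higher in KO. Endothelial and stromal marker genes summed to 585 ± 73.4 CPM in WT and 625 ± 66.9 CPM in KO, with 9 of 24 at 0, among them Sele and Lepr.

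On the lower side Lat2, a membrane adaptor of immune receptor signalling, was at 95.5, 152 and 103 CPM in WT and 32.4, 46.9 and 39.9 CPM in KO (log2 -1.57, SE 0.30, DESeq2 adjusted p = 0.00115). Pdcd4, an inhibitor of translation initiation, was at 83.7 ± 18.2 and 30.4 ± 10.0 CPM, and Sys1, a Golgi membrane protein, at 99.2 ± 6.63 and 49.2 ± 5.03 CPM. The ubiquitin ligase gene Herc2 was at 126 ± 65.8 and 39.3 ± 5.89 CPM. Each of these was lower in every KO library than in any WT library. The exocyst gene Exoc6b was at 58.8 ± 21.0 and 11.3 ± 3.65 CPM. B3gnt3, a glycosyltransferase that extends core 1 O-glycans, was at 41.4 ± 23.4 and 6.49 ± 1.30 CPM. Tigd5, a gene derived from a transposase, had 11.4, 5.86 and 10.7 CPM in WT and no count in KO, at least 52.2-fold lower.

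**Figure D3:**
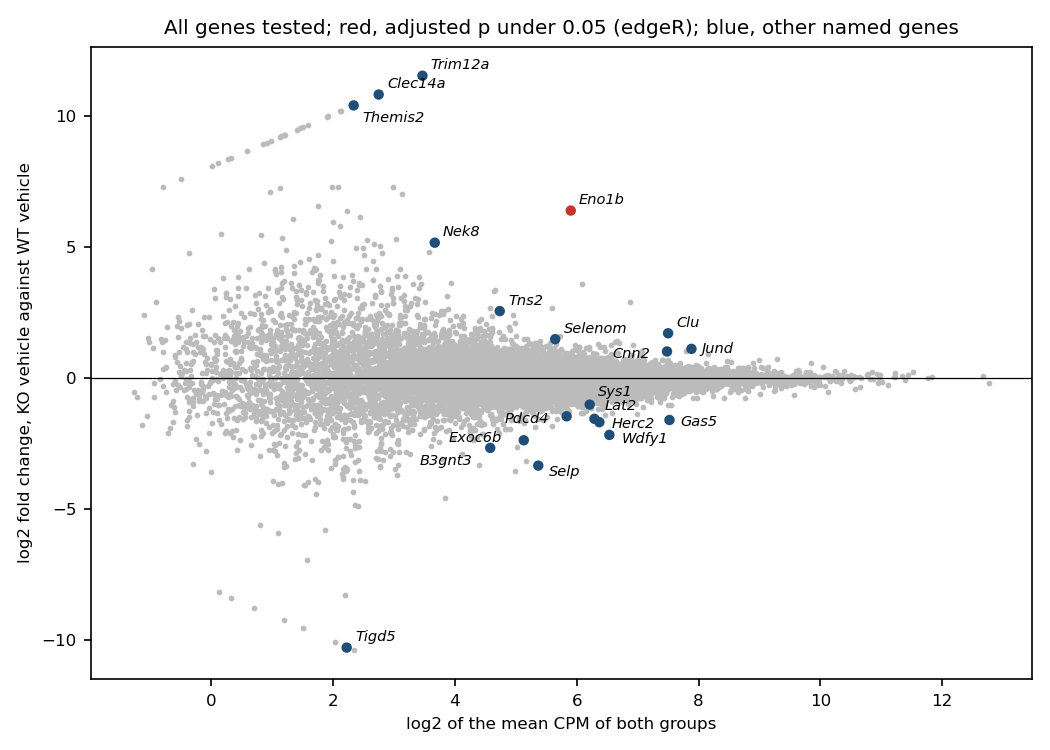
Each point is 1 of the 11783 genes tested, by the log2 of its mean CPM and its log2 fold change in KO against WT vehicle libraries. Eno1b (red, 6.38) is the 1 gene past the threshold; Selp and the other named genes are blue, and the rows of points near 10 and -10 are genes with no count in one genotype, whose height depends on the prior count.

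The fresh and PSGL-1 libraries, none of which entered the vehicle comparison, give a second reading of these 20 genes. The labels do not say whether the same mice gave cells to several conditions. The sign was the same for 17 of the 20, and 8 had an edgeR p under 0.05 in a fit of the 10 libraries with condition as a term, where 4.41% of all genes did. In 5 genes each KO library of the 10 lay beyond each WT library in the direction of the vehicle difference: Eno1b, Trim12a, Selp, Gas5 and Wdfy1. Such a separation was found for 62 genes higher (0.455%) and 37 lower (0.271%) of 13632. Across all tested genes 1 passed in those libraries, Eno1b (0.00734%), and without WT PSGL-1 replicate 1, a sparse library in which 9035 genes had a count, there were 3, Eno1b, Trim12a and Plac8 (0.0204%).

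For the remaining named genes the values in those libraries ranged from close to the vehicle difference to the other sign. Clu was at 30.8 to 52.8 CPM in fresh WT and 130 and 230 CPM in fresh KO, and its difference over the 10 libraries was 1.65 (SE 0.29, edgeR adjusted p = 0.434). The highest WT library, at 137 CPM, lay just above the lowest KO library at 130 CPM. Jund had a difference of 0.78 (SE 0.27) there, also with overlapping groups. Exoc6b had a difference of 0.07 there against -2.38 in vehicle, and Nek8 of -0.35 against 5.15. Tigd5, without a count in KO vehicle cells, had a difference of 1.05. Without WT PSGL-1 replicate 1 the value of Nek8 became 1.39, that of Themis2 went from 1.82 to -1.01, that of Sys1 from -0.04 to 0.26 and that of B3gnt3 from -0.02 to 0.36. For 9672 genes averaging 10 CPM or more, the vehicle and fresh differences had a Pearson r of 0.189 and the same sign in 54.2%. This is a description across genes, and the libraries are separate but may come from the same mice.

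The difference of the genotype effect itself was also fitted. Between vehicle and fresh cells edgeR called 0 of 13736 genes, with 503 at an unadjusted p under 0.05 (3.66%), and DESeq2 called 83. Leaving out WT vehicle replicate 3 gave 9 calls and leaving out KO fresh replicate 2, which leaves a single fresh KO library assumed to vary like the rest, gave 116. Between vehicle and PSGL-1 cultures edgeR called 0 of 13341, with 445 at an unadjusted p under 0.05 (3.34%), and DESeq2 called 82. There 1 call came without WT vehicle replicate 3 and 2382 without WT PSGL-1 replicate 2, where the sparse replicate 1 alone stood for its group. Selp had a vehicle minus fresh value of 2.50 and Eno1b of 0.62, both with an edgeR adjusted p of 1.00.

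Genes reported as raised in HSCs of old mice were mostly above 0 in KO vehicle cells, Selp itself aside. In the aging list 48 genes were tested and 38 lay above 0 (79.2%, against 50.4% of all genes) and the median log2 difference was 0.36 (quartiles 0.04 and 1.02), against 0.00 over all genes. None passed the edgeR test. An unadjusted edgeR p under 0.05 was reached by 5 higher and 1 lower (all genes, 1.71% and 2.1%). The groups did not overlap for 9 higher and 1 lower, the last being Selp (all genes, 6.62% and 4.32%). The median stayed between 0.31 and 0.56 under each alternative fit. Vwf, the von Willebrand factor of platelets and platelet-biased HSCs, was at 56.6, 46.1 and 72.0 CPM in WT and 110, 128 and 208 CPM in KO (log2 1.33, SE 0.32, DESeq2 adjusted p = 0.0326). Plscr2, a phospholipid scramblase, was at 116, 122 and 202 CPM in WT and 359, 264 and 273 CPM in KO (log2 1.00, SE 0.26). Both, like Clu, were higher in every KO library. The list was drawn from reports on aged HSCs, and Selp and Clu belong to it as well as to the genes named by rank. Fresh libraries had 39 of 48 members above 0 with a median of 0.58 (all genes, 5726 of 11524 and -0.005). In PSGL-1 libraries without WT replicate 1, replicate 2 alone stood for WT. There 31 of 48 members were above 0 with a median of 0.56 (all genes, 6078 of 11709 and 0.02).

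**Figure D4:**
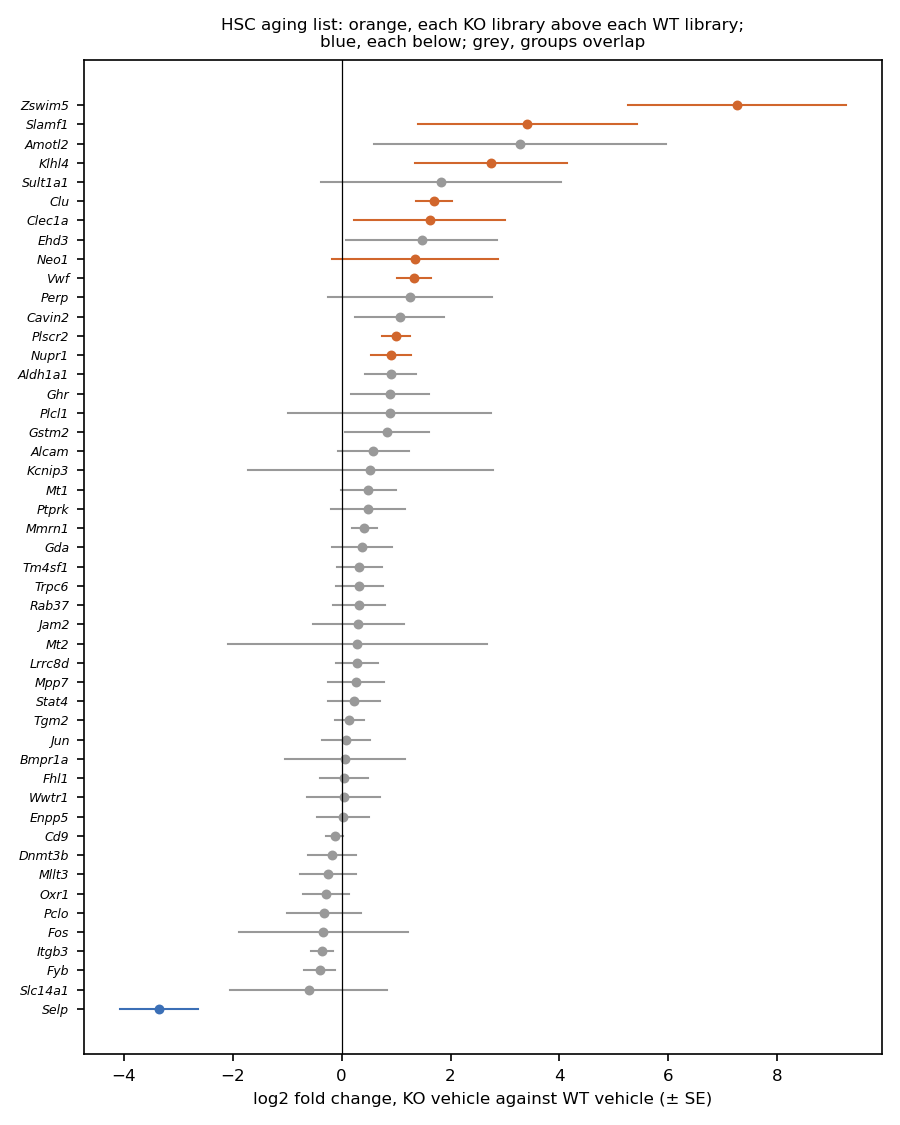
Log2 fold change with its SE for the 48 tested genes of the HSC aging list, KO vehicle against WT vehicle; orange, each KO library higher, blue, each lower, grey, groups overlap. In all 38 points lie right of 0; Clu (1.70), Vwf (1.33) and Plscr2 (1.00) have narrow errors, while Zswim5 (7.26, SE 1.99), singled out after its values were seen, had 1 WT library with any count, and Selp (-3.35) lies furthest left.

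HSC identity genes lay close to 0. Of 42 tested HSC identity genes 25 were above 0, with a median of 0.10. Ly6a, the gene of the sorting antigen Sca-1, was at 473, 440 and 499 CPM in WT and 864, 738 and 732 CPM in KO (log2 0.71, SE 0.13, DESeq2 adjusted p = 4.8e-05). It was higher in every KO library, and its difference over the other 10 libraries was 0.74 with overlapping groups. Fgd5, a guanine nucleotide exchange factor used as an HSC marker, was at 18.3, 85.9 and 19.6 CPM in WT and 10.2, 14.5 and 7.17 CPM in KO, so that its size rests on WT replicate 2. Mecom, Hlf, Procr and Kit had overlapping groups. Megakaryocyte and platelet genes were split 13 above and 13 below 0 with a median of -0.04, and their sum was 3359 ± 434 CPM in WT and 3298 ± 356 CPM in KO.

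The sums of erythroid genes and of T and NK cell genes separated the genotypes. The 23 genes summed to 1155 to 1234 CPM in WT and 724 to 835 CPM in KO, with 6 of them, among them both haemoglobin alpha genes, at 0. The sum was led by Car2, carbonic anhydrase 2, at 939, 992 and 827 CPM in WT and 653, 622 and 495 CPM in KO (log2 -0.65, SE 0.15, DESeq2 adjusted p = 0.00431). Gata1, the master factor of erythroid and megakaryocyte cells, was at 48.8, 11.5 and 61.7 CPM in WT and 4.64, 7.79 and 28.5 CPM in KO with overlapping groups. Of the 9 erythroid genes with enough counts 4 were above 0, and their median of -0.51 became 0.43 without WT replicate 3. In bulk libraries fewer cells of a type and less RNA per cell cannot be told apart. T and NK cell genes summed to 47.5 to 89.5 CPM in WT and 26.6 to 41.3 CPM in KO, led by the kinase gene Lck, while 14 of the 18 in the file were at 0. Granulocyte and monocyte genes summed to 473 ± 132 and 445 ± 62.6 CPM, and B and plasma cell genes to 292 ± 28.3 and 296 ± 18.7 CPM. Most of the B and plasma cell sum was Xbp1, at 245 CPM in WT and 265 CPM in KO, and 11 of the 16 genes were at 0. Macrophage and dendritic cell genes summed to 260 to 971 CPM in WT and 301 to 1176 CPM in KO, and 10 of the 20 were at 0. The part of such cells in the differences above was not tested.

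Cell cycle lists had medians near 0 in vehicle culture. Of 50 DNA replication genes 33 were above 0 with a median of 0.03, and of 48 mitosis genes 23 with a median of -0.02. In fresh cells the same lists had 6 of 50 above 0 (median -0.47) and 8 of 48 (median -0.62), a difference between the conditions that was not tested as a list. Individual mitosis genes went both ways: Kif11, a spindle motor, was at 97.1 ± 24.6 in WT and 158 ± 16.1 CPM in KO, and Knl1, a kinetochore scaffold, at 145 ± 36.8 and 88.4 ± 8.06 CPM, neither pair of groups overlapping. Cdk6, the kinase that lets HSCs leave quiescence, was at 662, 620 and 568 CPM in WT and 445, 327 and 451 CPM in KO (log2 -0.61, SE 0.16, DESeq2 adjusted p = 0.0484). It was lower in each KO library, and its difference over the other 10 libraries was -0.78. Myc was at 712 ± 175 and 514 ± 40.7 CPM (log2 -0.48, SE 0.18), with 0.12 over the other 10 libraries. Quiescence-associated genes had 15 of 32 above 0 and a median of -0.02.

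Growth and protein synthesis lists had medians near 0, but a smaller share above 0 than the 50.4% of all genes. The share was 27.3% for ribosomal protein genes, 30.6% for ribosome biogenesis and MYC targets and 35.3% for integrated stress response and amino acid genes. The 77 tested ribosomal protein genes had a median of -0.04, 21 of them above 0, whereas in fresh cells 75 of 77 were above 0 with a median of 0.37. Across the alternative fits the vehicle median ran from -0.12 to 0.09, so its sign is not settled. Rpl29 stood apart from this family: it was at 27.2, 29.7 and 25.5 CPM in WT and at 312, 19.8 and 287 CPM in KO, so that KO replicate 2 lay with the WT libraries (log2 2.89, SE 0.80, DESeq2 adjusted p = 0.0112). Without that library edgeR gave 3.43 with an adjusted p of 0.00775. Rpl29 has processed copies in the genome, and the part of their reads in these counts was not tested. Ribosome biogenesis and MYC target genes had 11 of 36 above 0 and a median of -0.10, and integrated stress response and amino acid genes 12 of 34 and -0.12, led by the asparagine synthetase gene Asns at 160 ± 36.4 and 93.9 ± 13.7 CPM (log2 -0.78, SE 0.25).

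Metabolic lists had medians close to 0 as well. Nuclear oxidative phosphorylation genes had 38 of 72 above 0 and a median of 0.00, cholesterol synthesis genes 16 of 30 and 0.02, and glycolysis and hypoxia genes 21 of 35 and 0.07. The mitochondrial redox genes grouped around Nnt had 14 of 27 above 0 and a median of 0.01. Among them G6pdx, which feeds NADPH to the cytosol, was at 253, 193 and 183 CPM in WT and 122, 134 and 171 CPM in KO (log2 -0.57, SE 0.21), without overlap. NRF2 and glutathione genes had 20 of 29 above 0 with a median of 0.14. Nqo1, a quinone reductase, was at 83.5 ± 20.2 and 137 ± 11.1 CPM (log2 0.70, SE 0.25), while Gclm, a subunit of glutathione synthesis, was at 767 ± 87.1 and 618 ± 34.3 CPM (log2 -0.33, SE 0.13).

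Autophagy and lysosome genes had the largest share above 0 of all lists, just ahead of the aging list. Positive values were found for 24 of 30, and the median of 0.22 ran from 0.09 to 0.37 over the alternative fits. Ctsb, the lysosomal protease cathepsin B, was at 205, 292 and 321 CPM in WT and 422, 435 and 440 CPM in KO (log2 0.65, SE 0.19, DESeq2 adjusted p = 0.167). All 3 KO libraries were higher, yet the difference over the other 10 libraries was 0.02. Ulk1, the kinase that starts autophagy, went the other way at 104, 132 and 70.2 CPM in WT and 45.1, 60.7 and 50.7 CPM in KO (log2 -0.98, SE 0.30). The groups did not overlap for 5 members higher and 1 lower (all genes, 6.62% and 4.32%).

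Inflammatory and adhesion lists held single genes with separated groups. Interferon-stimulated genes had 26 of 42 above 0 and a median of 0.18, NF-kB and inflammatory genes 21 of 32 and 0.18, and immediate early genes 14 of 24 and 0.07. Their medians ran from 0.01 to 0.34, from -0.02 to 0.47 and from -0.18 to 0.27 over the alternative fits. Nfkb1, the p105 precursor of p50, was at 215, 232 and 249 CPM in WT and 163, 147 and 149 CPM in KO (log2 -0.62, SE 0.16, DESeq2 adjusted p = 0.0494). It was lower in each KO library in vehicle, and its difference over the other 10 libraries was 0.02. Il6ra, the interleukin-6 receptor, was at 11.9 ± 3.44 and 31.3 ± 5.62 CPM (log2 1.37, SE 0.54). Integrins and homing receptors had 15 of 28 above 0, with Cd47, a signal against phagocytosis, at 294 ± 33.1 and 449 ± 74.4 CPM (log2 0.60, SE 0.17) and Itgb7, a gut homing integrin, at 45.1 ± 13.7 and 11.7 ± 9.34 CPM (log2 -1.95, SE 0.66). The value of Cd47 over the other 10 libraries was 0.60 too. Kinases downstream of P-selectin and PSGL-1 had 10 of 26 above 0 and a median of -0.06, and the focal adhesion kinase gene Ptk2 was at 53.5 ± 37.2 and 17.6 ± 4.75 CPM with overlapping groups.

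Stress, chromatin and signalling lists gave further single genes. ER chaperone and unfolded protein response genes had 17 of 25 above 0 and a median of 0.09. Besides Atf6, the co-chaperone gene Dnajb9 was at 7.19 ± 1.92 CPM in WT and 22.7 ± 9.64 CPM in KO, while Selenos, a selenoprotein of ER-associated degradation, was at 41.4, 87.4 and 66.8 CPM in WT and between 39.0 and 39.3 CPM in KO. Both separated the genotypes, in opposite directions. Heat shock chaperones had 11 of 25 above 0 (median -0.01) and p53 targets 16 of 28 (median 0.14, from -0.20 to 0.21 over the alternative fits). Trp53 itself was at 477 ± 20.8 and 407 ± 39.4 CPM. TGF-beta pathway genes had 15 of 28 above 0 and a median of 0.06, and 4 members separated the genotypes on the higher side and 0 on the lower, where 6.62% and 4.32% of all genes did. Among these, Tgfbi, a secreted matrix protein induced by TGF-beta, was at 480, 341 and 331 CPM in WT and 575, 509 and 616 CPM in KO, and the signal transducer gene Smad1 at 71.2 ± 7.80 and 106 ± 7.21 CPM. Tgfbi had a difference of 0.55 (SE 0.18) in vehicle and of 0.61 over the other 10 libraries. Antigen presentation genes had 13 of 26 above 0 (median 0.01), cytokine receptor and JAK-STAT genes 18 of 35 (0.04), G1 cyclin and CDK genes 10 of 23 (-0.05), fatty acid synthesis genes 15 of 23 (0.12) and DNA methylation and Polycomb genes 10 of 22 (-0.05). The histone methyltransferase gene Kmt2a, at 141 ± 31.4 and 90.5 ± 20.8 CPM, and the DNA methyltransferase gene Dnmt3a, at 135 ± 37.0 and 101 ± 4.69 CPM, had overlapping groups.

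**Figure D5:**
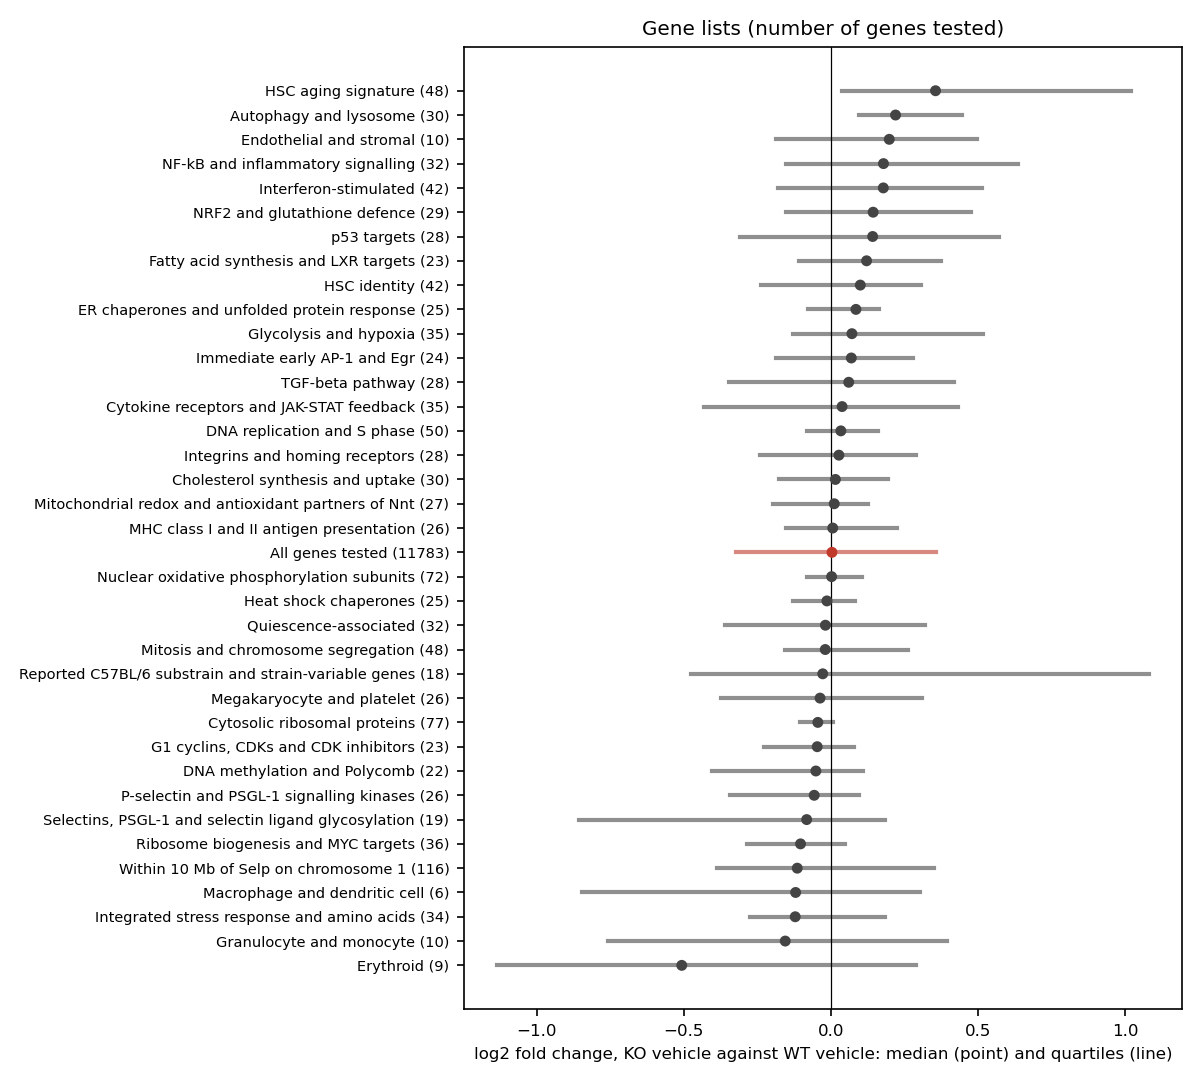
Median (point) and quartiles (line) of the log2 fold change, KO vehicle against WT vehicle, for gene lists with at least 6 tested genes and for all 11783 genes (red, 0.00). The aging list is highest at 0.36 and erythroid genes lowest at -0.51, while most other medians lie near 0.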

How the data were processed

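The authors deposited raw counts of reads per gene, which per the submitters' processing notes come from a workflow with STAR 2.7.5c, featureCounts, DESeq2 and MultiQC 1.10 on mm10. How the counting handled strand and reads that match more than 1 place, and which gene models it used, is not stated in the notes. Per the labels' protocols, RNA was extracted with a micro column kit and amplified with a low-input SMART kit, without molecular identifiers. Of the genes in the file, 25148 were matched to RefSeq genes for coordinates, 107 of them through a synonym. Transcript sequences and the positions of the coding stretches shown came from GENCODE M21.

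The 6 vehicle libraries were fitted alone with edgeR 4.0.16 in R 4.3.3 (robust quasi-likelihood test, TMM scaling, filterByExpr), and Benjamini-Hochberg adjustment ran over all genes tested, with a threshold of 0.05. The scripts were tested on simulated data. SE is the absolute log2 difference divided by the square root of F. Alternatives were DESeq2 1.42.0, limma 3.58.1 with voom quality weights, RLE size factors, no filter, a stricter filter (at least 5 CPM in 3 libraries), all 16 or 15 libraries in the fit, a replicate block, and each library left out. The fits of the other 10 and 9 libraries were added after the data were seen.

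Named genes are Selp and Selplg, genes called by edgeR, and, to reach 10 in each direction, those with the smallest unadjusted p among genes with separate groups, an absolute log2 difference of at least 1 and a mean of at least 5 CPM. From each list the 4 members with the smallest unadjusted p, those called near Selp and defining genes may be named; a few are not reported here. The members, lists and naming rule were chosen with earlier results of these data known. Within groups the chi-square per degree of freedom between libraries was 62.7 to 173, so no library was a mere recount of another. These values do not show that the libraries of a group come from different mice. TMM factors were 0.975 to 1.01.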

Additional observations from a re-analysis of the deposited data

How the results depend on the processing

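Against the single call by edgeR, DESeq2 gave 66 calls (42 higher, 24 lower), limma 0 and a fit of 15 libraries without WT PSGL-1 replicate 1 gave 2, Eno1b and Trim12a (edgeR adjusted p = 0.00204). Leaving out each vehicle library in turn gave 1 to 2, the 2 without KO replicate 2. RLE size factors, no filter, the stricter filter and all 16 libraries each gave 1, which was Eno1b. Eno1b had a limma adjusted p of 0.968 and stayed called in the other fits. Selp was at -3.34 in DESeq2 (adjusted p = 0.000831) and between -3.92 and -2.52 without each library in turn, and the cause of the difference between tools was not tested. Selplg ran from -0.32 to 0.10 and changed sign without WT replicate 1 (0.00197) and without KO replicate 3 (0.0966).

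Among the named genes 246 of the alternative values stayed on the same side with the same direction, 19 came to pass the threshold and 1 no longer did, while of the list medians 484 moved by less than their spread and 20 by more. In the other 10 libraries, leaving out WT PSGL-1 replicate 1 turned Nek8 to 1.39, Themis2 to -1.01, B3gnt3 to 0.36 and Sys1 to 0.26. For the vehicle minus fresh effect DESeq2 gave 83 calls and leaving out each library 0 to 116. For vehicle minus PSGL-1 these were 82 and 0 to 2382. The cause of these moves was not tested, but the highest counts came from fits with 1 library left in a group.

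With the replicate number as a block edgeR again called 1 gene, with 395 at an unadjusted p under 0.05, and Selp stood at -3.20 and Selplg at -0.11. Libraries with the same number did not deviate together (correlations -0.009, 0.022 and -0.020). These values cannot show whether any libraries share a mouse or a batch, which the labels do not give. Depth limits genes near the floor of 3 counts. The parts of counting error and of low-input amplification in the spread between libraries were not tested.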

Other observations

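Further genes that DESeq2 called were noticed only after their values were seen. In the Trim5 cluster Trim34b, at mm10 chr7:104329471-104336617, was at 1.97 to 13.05 CPM in WT and at 0, 0.0742 and 0 CPM in KO (DESeq2 adjusted p = 0.000831), the reverse of Trim12a beside it. Its copy Trim34a, which holds 59% of the 50-base stretches of Trim34b, was at 2.48 CPM or more in each WT library and 13.5 to 26.7 CPM in KO with overlapping groups, and Trim30a overlapped as well. Itgb4, the integrin subunit of hemidesmosomes, was at 1.32, 1.01 and 4.45 CPM in WT and 17.9, 34.6 and 32.1 CPM in KO (DESeq2 adjusted p = 0.00247). Tnfaip2, a gene induced by tumour necrosis factor, was at 181, 158 and 255 CPM in WT and 355, 315 and 454 CPM in KO (DESeq2 adjusted p = 0.0484). P2rx7, a channel gated by extracellular ATP, and Ptges, a prostaglandin E synthase, had no count in any WT vehicle library and 1.85 to 8.12 and 2.30 to 19.0 CPM in KO.

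Rpl29 was low in each WT library and split the KO libraries of the study. It was at 16.7 to 52.5 CPM in each of the 8 WT libraries. In KO cells it was at 19.8 CPM in vehicle replicate 2, 28.7 CPM in fresh replicate 1 and 19.2 CPM in PSGL-1 replicate 2, and at 209 to 312 CPM in the other 5. The low KO libraries carry the neighbouring numbers 10, 11 and 12 in their descriptions. The labels do not say whether neighbouring numbers share a mouse, and this was not tested.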
